A study of Equus caballus with 13 samples.

Results

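Described here are 10 genes of the SMAD and TGF-beta signalling pathway, namely SMAD1 to SMAD7, the receptor genes TGFBR1 and TGFBR2, and SKIL. They were picked by name from the first column of the 2 deposited tables of RNA kinetics. All 10 had a row in each table, of 10974 genes that the tables share. The study measured RNA turnover in wild-type horse (Equus caballus) chondrocytes, the cells of cartilage, to ask how age and sex act on RNA after it has been transcribed. There were 5 samples from old females, 5 from young females and 3 from young males. Ages in years and the joint were not given in the labels. Cells of all 3 groups had been released from cartilage, grown for 2 days in complete DMEM and exposed to 4-thiouridine (4sU, a uridine analogue taken up into newly made RNA) for 4 h, so no group was free of the label and each measured cells in culture rather than in tissue.

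TGF-beta and its relatives, the activins and bone morphogenetic proteins (BMPs), signal through pairs of type I and type II receptor kinases at the cell surface. An active type I receptor phosphorylates a receptor-regulated SMAD, which joins the common partner SMAD4 and enters the nucleus to act on target genes. SMAD2 and SMAD3 carry the TGF-beta and activin signal and SMAD1 and SMAD5 the BMP signal. SMAD6 and SMAD7 are inhibitory SMADs that are themselves switched on by the pathway and damp it, and SKIL (also called SnoN) is a nuclear co-repressor that binds SMAD complexes. In cartilage, TGF-beta signalling through SMAD2 and SMAD3 is known for holding chondrocytes in their mature articular state, and BMP signalling for driving matrix production and hypertrophy.

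Each table gave the authors' estimate of a synthesis rate and a half-life per gene and group. One table, called the age table here, set old against young females (11056 genes), and the other, the sex table, set young males against young females (11249 genes). The 5 young female samples entered both. No value per sample was used, so the depth is unknown, no SD or n accompanies a value, and animal-to-animal spread is unknown too. Differences are described by size, with no test. Half-lives were read as hours and synthesis rates as arbitrary units. Whether synthesis rates are scaled by gene length is not given in the sources used here, so they are compared between groups and not between genes. The implied level, computed as synthesis rate times half-life over ln 2, estimates the amount of RNA if it was constant during labelling. In bulk samples, fewer cells of a type and less RNA per cell cannot be told apart. With 12 batch labels on 13 samples and only batch 10 holding samples of 2 groups, batch and group cannot be told apart either.

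The chondrocyte label was checked against marker genes. All 8 chondrocyte markers on the list, COL2A1, ACAN and SOX9 among them, were listed in both tables. Of the endothelial, immune and adipocyte markers, VWF, CD14 and FABP4 were listed, and PECAM1, CDH5, PTPRC, CD68, CSF1R, ADIPOQ and PLIN1 had no row in the tables used here. The markers moved with the groups. The summed implied level of the chondrocyte markers was 0.904 times the young female sum in old cells (2 of 8 genes higher) and 2.46 times in male cells (7 of 8 higher). Such sums weight genes by synthesis rates whose scaling is not known. In old cells COL2A1, ACAN, SOX9, COL9A1 and HAPLN1 were at 0.497 to 0.715 times their young female level, and CNMD at 0.913 times. COMP (1.77 times) and MATN3 (1.18 times) were higher. In male cells SOX9 was at 0.948 times and the others at 1.27 to 3.99 times. For the 4 fibroblast markers COL1A1, COL1A2, COL3A1 and THY1 the sum was 0.452 times in old cells (0 of 4 higher) and 2.64 times in male cells (4 of 4 higher). Within that sum COL1A1 was at 0.138 and 18.3 times its young female level in old and male cells, and COL1A2 at 0.282 and 10.5 times. FABP4, the adipocyte marker listed, was at 1.34 and 2.83 times, and VWF and CD14 were between 1.03 and 1.20 times. The range that 4 h of labelling was taken to resolve was 1 to 24 h, and implied levels are less certain outside it. In males COL2A1, COL9A1, COMP, MATN3, CNMD, VWF and the 4 fibroblast markers had half-lives above 24 h. COMP, MATN3, CNMD and COL1A2 were above 24 h in every column, and at the upper limit of listed half-lives in males. SOX9 was below 1 h in every column. ACAN, HAPLN1 and CD14 were within the range in every column, and COL1A1 and COL3A1 in all but males. The part of these marker shifts in the results below was not tested.

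Half-lives separated TGFBR1 and TGFBR2 from the SMADs and SKIL. In every column TGFBR2 had the longest half-life of the 10 genes and TGFBR1 the next, and the other 8 genes lay below the median of all genes. That median was 3.64 h in young females and 3.43 h in old females of the age table, and 3.74 h in young females and 4.63 h in young males of the sex table. The median of the 10 genes was 1.35, 1.26, 1.37 and 1.64 h in the same order.

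TGFBR2, the type II receptor that binds TGF-beta first, had a half-life of 9.61 h in young females and 9.51 h in old females, and 9.60 h in young females and 11.0 h in young males of the sex table. These values put it between the 73.1 and the 78.8 percentile of all genes. TGFBR1, the type I receptor kinase that phosphorylates SMAD2 and SMAD3, had half-lives of 4.22 and 4.26 h in young and old females, and 4.21 and 6.07 h in young females and males. At constant level, such half-lives mean that 25.1% of TGFBR2 RNA and 48.2% of TGFBR1 RNA in young females was made within the 4 h of labelling. Both receptor RNAs were thus listed as slower to renew than any of the 8 other members.

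Of the SMADs of the TGF-beta and activin branch, SMAD2 was the more stable. Its half-life was 2.21 h in young and 2.32 h in old females, and 2.20 h in young females and 3.01 h in males of the sex table. SMAD3, its close relative, had half-lives of 1.34 and 1.26 h in young and old females, and 1.35 and 1.61 h in young females and males. SMAD2 was longer-lived than SMAD3 in each of the 4 columns. New RNA made up 71.5% of SMAD2 and 87.4% of SMAD3 in young females under the same assumption.

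In the BMP branch, SMAD5 resembled SMAD3, with half-lives of 1.29 and 1.23 h in young and old females and 1.29 and 1.67 h in young females and males. SMAD1 did not, because its young female values were of another order: 0.0453 h in the age table and 0.0295 h in the sex table, against 0.891 h in old females and 1.11 h in young males. Both young female values were among the shortest of their column, at rank 71 of 11056 and rank 32 of 11249. SMAD4, the partner shared by both branches, had half-lives of 1.45 and 1.27 h in young and old females and 1.45 and 1.74 h in young females and males, again close to SMAD3 and SMAD5.

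The inhibitory SMADs were short-lived. SMAD7, which occupies type I receptors and recruits ubiquitin ligases to them, had half-lives of 0.969 h in young and 0.680 h in old females, and 0.983 h in young females and 0.589 h in males of the sex table. It lay between the 1.82 and the 5.12 percentile of all genes. SMAD6, which acts mainly against BMP signalling, had half-lives of 1.20 and 1.08 h in young and old females and 1.19 h in young females of the sex table. In males its listed half-life was 0.0250 h, rank 42 of 11249. SKIL had nearly the same value in all columns: 1.36 and 1.37 h in young and old females, and 1.39 and 1.43 h in young females and males.

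**Figure D1:**
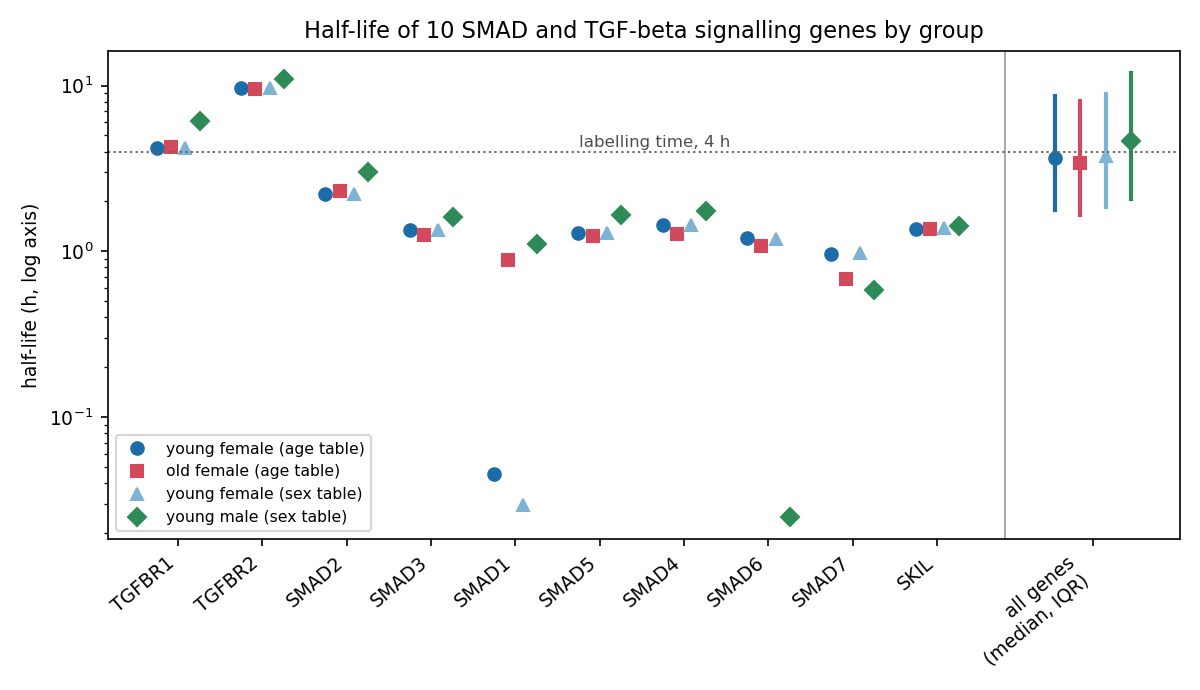
Half-life in hours on a log axis for each of the 10 genes, with 1 point per group and table, and at the right the median and interquartile range of all genes in the same 4 columns. The receptors TGFBR1 and TGFBR2 lie above the 4 h labelling time in every column and the other 8 genes below it, with SMAD1 in young females and SMAD6 in young males far below the rest.

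Because the same young female samples were estimated in both tables, their 2 values give a repeat of the estimation on the same libraries. For 9 of the 10 genes the young female half-life differed by 1.87% or less between tables. Among all shared genes 88.0% differed by less than 5%, so such close values are common. Of the members SMAD1 was the exception, with a difference of −34.9% in the sex table. The implied levels of young females differed by a near-constant offset of −0.07 log2 units for these 9 genes and by −0.08 for SMAD1. This repeat shares its samples and holds no variation between animals.

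Half-lives as short as those of SMAD1 and SMAD6 formed a separate class in each column. Between 70 and 129 genes per column were under 0.1 h, 6 to 40 lay from 0.1 to 0.4 h, and 481 to 779 from 0.4 to 1 h. Of 96 shared genes under 0.1 h in young females of the age table, 62 (64.6%) were at 0.5 h or more in the sex table, and of 68 such genes of the sex table, 32 (47.1%) were at 0.5 h or more in the age table. BAMBI, a decoy receptor of the pathway, was listed at 0.707 and 0.0448 h for young females in the age and sex tables, and the BMP target ID2 at 0.0644 and 0.655 h. SMAD1 was among the 34 genes under 0.1 h in both. SMAD6 in males has no second estimate, and the part of the estimation in either value was not tested.

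**Figure D2:**
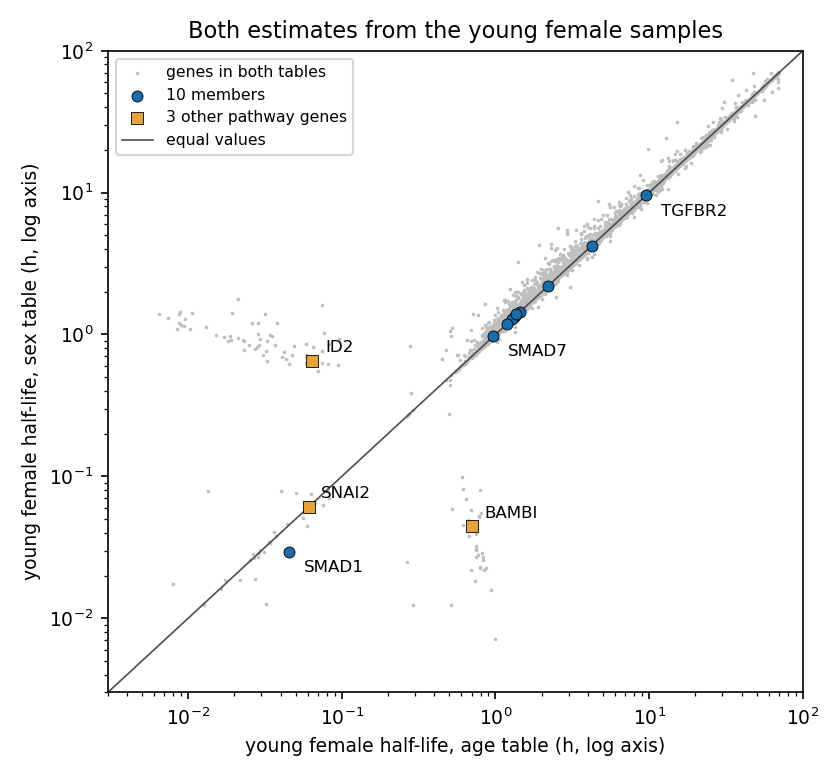
Young female half-life in the sex table against that in the age table, in hours on log axes, for genes in both tables (grey), the 10 members (blue circles) and 3 other pathway genes (orange squares), with the line of equal values. Except for SMAD1 the members lie on the line, and BAMBI and ID2 belong to the groups of genes that are under 0.1 h in 1 table and above 0.5 h in the other.

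The first comparison asked how old female cells differed from young female cells. The inhibitory SMADs had the lowest ratios of implied level among the 10 genes, with SMAD7 1.71-fold lower and SMAD6 1.47-fold lower in old cells. The receptors, SMAD2, SMAD3, SMAD4 and SMAD5 were 1.01- to 1.21-fold higher, and SMAD1 and SKIL were 1.08- and 1.03-fold lower. SMAD1 carried the only ratio of 2-fold or more, in half-life and in synthesis rate with opposite signs. At a given implied level the half-life fixes the synthesis rate, so these opposite ratios are not separate results.

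SMAD7 was listed with a synthesis rate of 1856 in young and 1543 in old females, so that its half-life (log2 ratio −0.51) and its synthesis rate (−0.27) were both lower. Its implied level had a log2 ratio of −0.78, at the 3.38 percentile of all genes. SMAD6 had synthesis rates of 1035 and 780, with log2 ratios of −0.41 for synthesis, −0.15 for half-life and −0.55 for level. For level, 2 of 10 members and 7.37% of all genes were at −0.5 or below, and for half-life 1 of 10, SMAD7, and 8.88% of all genes. Relative to genes of the same decile of half-life, ranked on the young male half-life, the level ratios of SMAD7 and SMAD6 were −0.82 and −0.60. The half-life ratio of SMAD7 was −0.37 relative to its decile and −0.43 relative to the median of all genes, both above −0.5. Levels of both inhibitory SMADs thus stood lower in old cells on each of these scales, without an animal-level error to set this against.

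SMAD1 had synthesis rates of 9636 in young and 453 in old females. Its half-life ratio of 4.30 and its synthesis ratio of −4.41, on the log2 scale, nearly cancelled, and its implied level differed by −0.11. With the young female values of the sex table these ratios were 4.92, −4.95 and −0.03. At constant level the listed half-lives correspond to 100% new SMAD1 RNA after 4 h in young and 95.5% in old cells. The 19.7-fold difference in half-life corresponds to this difference in new RNA. Over all genes of the age table, 79 were under 0.1 h in young and at 0.5 h or more in old females, and 57 of them (72.2%) had an absolute log2 level ratio under 0.5, compared with 84.4% of all genes.

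For half-life, 1 of 10 members was at least 2-fold longer in old cells (1.47% of all genes) and 0 were at least 2-fold shorter (2.06%). For synthesis rate 0 were at least 2-fold higher (4.59%) and 1 was lower (2.92%). For implied level 0 were past 2-fold in either direction (2.13% of all genes higher, 1.99% lower). Of the 8 members whose half-lives in young and old females were both within 1 to 24 h, the range that 4 h of labelling was taken to resolve, 0 were past 2-fold for half-life (0.889% of genes in this range), synthesis rate (4.73%) or level (3.43%). Their half-life ratios ran from −0.20 (SMAD4) to 0.07 (SMAD2).

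A longer half-life in old cells was listed for 4 of the 10 members, compared with 36.5% of all genes. The median log2 half-life ratio of all genes was −0.08, with by definition as many genes above it as below. Relative to it 7 of 10 members were longer, with TGFBR2, SMAD3 and SMAD5 changing sign. The half-lives of TGFBR1 (0.01), TGFBR2 (−0.02) and SKIL (0.01) were within 1.01-fold of the young female value, and those of SKIL changed sign, as its synthesis and level ratios did, when the young female value was taken from the sex table. TGFBR2 had synthesis rates of 5918 in young and 7254 in old females (log2 ratio 0.29), the highest synthesis ratio of the 10. SMAD3, with 2546 and 3021 (0.25), and SMAD4, with 1276 and 1506 (0.24), followed. SMAD2 (618 and 677), SMAD5 (1652 and 1748), TGFBR1 (1751 and 1783) and SKIL (656 and 635) had synthesis ratios between −0.05 and 0.13.

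**Figure D3:**
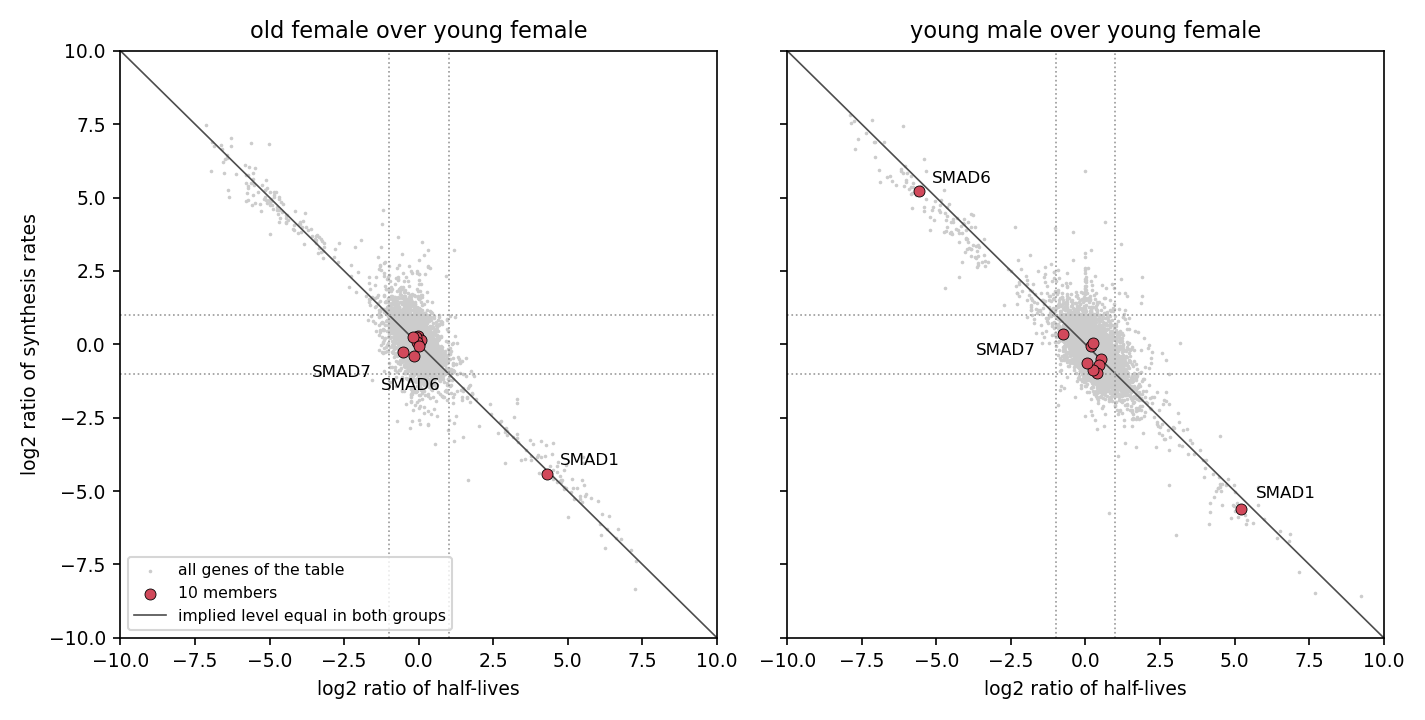
Log2 ratio of synthesis rates against log2 ratio of half-lives for old over young females (left) and young males over young females (right), with all genes of the table in grey and the 10 members in red. On the diagonal the implied level is equal in both groups, and dotted lines mark 2-fold. SMAD1 in both panels and SMAD6 in the right panel lie far out but close to the diagonal.

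The second comparison set young males against young females. Implied levels of SMAD4, SKIL and SMAD5 were 1.53-, 1.52- and 1.51-fold lower in male cells, and those of SMAD3 and TGFBR2 were 1.22- and 1.10-fold higher. Half-lives were longer in males for 8 of 10 members, as for 77.3% of all genes, and shorter for SMAD6 and SMAD7. SMAD1 and SMAD6 had half-life and synthesis ratios far past 2-fold, in opposite directions to each other. For each gene the half-life and synthesis ratios again mirror each other at a similar implied level and are not separate results. The young female values are the same samples as in the age comparison, so the 2 sets of ratios are not independent, and the low young female half-life of SMAD1 enters both.

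For SMAD4 the synthesis rate was 1219 in young females and 661 in males (log2 ratio −0.88), with a half-life ratio of 0.27 and a level ratio of −0.62. SMAD5 had synthesis rates of 1580 and 809 (−0.97, and −1.03, past 2-fold, with the young female value of the age table), a half-life ratio of 0.37 and a level ratio of −0.59. SKIL had rates of 615 and 391 (−0.65), a half-life ratio of 0.05 and a level ratio of −0.61. For level, 3 of 10 members and 12% of all genes were at −0.5 or below, and for synthesis rate 6 of 10 members and 32.1% of all genes. Relative to the median of all genes, the synthesis ratios of SMAD2 (−0.43), SKIL (−0.37) and TGFBR1 (−0.24) were above −0.5. Centred within half-life deciles, that of SMAD4 (−0.49) was above it too. The level ratios of SMAD4, SMAD5 and SKIL were at the 7.69, 8.45 and 8.05 percentile of all genes.

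Short-lived RNAs as a class had lower implied levels in males. When genes were ranked on their half-life in old females, a group that does not enter these ratios, the median log2 level ratio was −0.31 in the second decile from the shortest, which holds SMAD3, SMAD4, SMAD5, SMAD6 and SKIL, and −0.35 in the first, which holds SMAD1 and SMAD7. Relative to their decile SMAD4, SMAD5 and SKIL were at −0.31, −0.29 and −0.30, between the 19.0 and the 20.9 percentile of the 1097 genes in that decile. SMAD1, SMAD6 and SMAD7, with level ratios of −0.37, −0.35 and −0.40 as listed, were at −0.02, −0.04 and −0.05. SMAD3 went the other way: its level ratio of 0.28 as listed was 0.59 relative to its decile, at the 92.9 percentile.

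SMAD3 had synthesis rates of 2411 in young females and 2459 in males (log2 ratio 0.03), while the median of all genes was −0.28. It changed sign with the young female value of the age table, to −0.05. SMAD2, the other SMAD of that branch, had rates of 591 and 360 (−0.71), a half-life ratio of 0.45 and a level ratio of −0.27, or −0.09 relative to its decile. TGFBR1 had rates of 1677 and 1171 (−0.52) with a half-life ratio of 0.53, and its level was within 1.01-fold of the young female value. TGFBR2 had rates of 5658 and 5421 (−0.06), a half-life ratio of 0.19 and a level ratio of 0.13, which was −0.06 relative to its decile. Levels of both receptors thus differed by 1.10-fold or less between males and young females, with a sign that depended on the scale.

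SMAD6 was listed with a synthesis rate of 991 in young females and 37078 in males. Its log2 ratios were −5.58 for half-life (47.7-fold shorter), 5.23 for synthesis rate and −0.35 for level. SMAD1 had rates of 13954 and 288, with ratios of 5.23 for half-life (37.5-fold longer), −5.60 for synthesis rate and −0.37 for level. With the young female values of the age table these SMAD1 ratios were 4.61, −5.06 and −0.46. At constant level, 90.2% of SMAD6 RNA was new in young females and 100% in males, and 100% and 91.9% of SMAD1 RNA. Over all genes of the sex table, 114 were under 0.1 h in males and at 0.5 h or more in young females, and 63 of them (55.3%) had an absolute log2 level ratio under 0.5. In the other direction there were 52 such genes, 31 of them (59.6%) with level ratios under 0.5. Of all genes 75.02% had a level ratio under 0.5.

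SMAD7 had synthesis rates of 1746 and 2202 (log2 ratio 0.33), and a half-life ratio of −0.74, at the 2.83 percentile of all genes. The median half-life ratio of all genes was 0.27, and relative to it SMAD7 was at −1.01, past 2-fold, but at −0.73, not past it, relative to genes in the same half-life decile. It was the member with the lowest half-life ratio after SMAD6 in males, and in old cells it had the lowest of all 10 (−0.51). Its half-life was below 1 h in each column, under the 1 to 24 h range. Its level ratio of −0.40 in males compares with −0.78 in old females, and whether these differ could not be tested.

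For half-life, 1 of 10 members was at least 2-fold longer in males (5.62% of all genes) and 1 shorter (1.96%), and on the log2 scale 2 of 10 were at 0.5 or above (27.4%) and 2, SMAD6 and SMAD7, at −0.5 or below (4.4%). For synthesis rate 1 was at least 2-fold higher (3.78%) and 1 lower (8.37%), and 7 of 10 were below 0 (71.1%). For level 0 were past 2-fold (3% of all genes higher, 1.61% lower), and 7 of 10 were below 0 (49.5%). Of the 7 members within 1 to 24 h in young females and males, 0 were past 2-fold for half-life (3.87% of genes in this range), synthesis rate (9.33%) or level (3.27%). Relative to the median half-life ratio of all genes, 4 of 10 members had longer half-lives in males, with TGFBR2, SMAD3, SMAD4 and SKIL changing sign. Centred within half-life deciles, 6 of 10 were longer, and TGFBR2 and SKIL changed sign. On both centred scales as many of all genes are longer as shorter by definition.

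**Figure D4:**
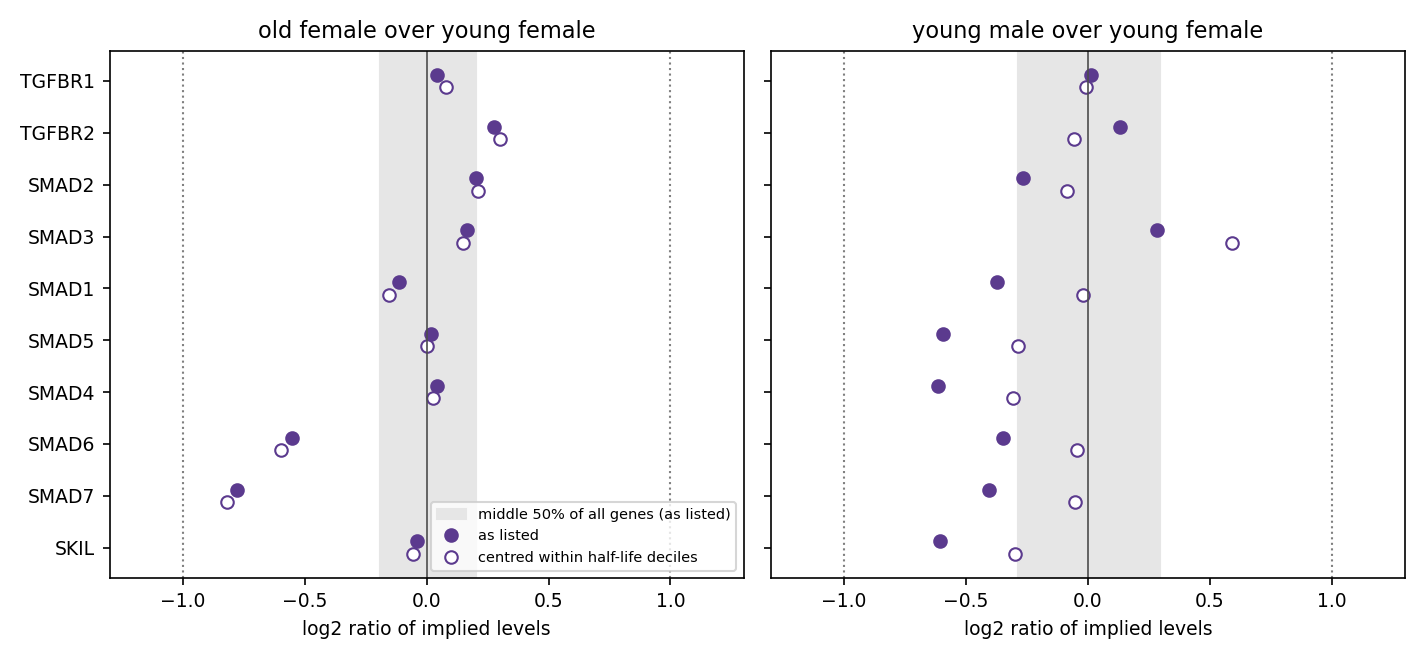
Log2 ratio of implied levels for each of the 10 genes, as listed (filled) and relative to the median of genes in the same half-life decile (open), for old over young females (left) and young males over young females (right). Grey bands span the middle 50% of all genes and dotted lines mark 2-fold. SMAD6 and SMAD7 lie left of the band in old cells on both scales, and in males SMAD3 lies farthest to the right on the decile scale.

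The rest of the pathway was described from a list of 64 other genes, of which 56 were in the age table and 58 in the sex table. In young females the 5 listed genes of latency and activation, such as the latent TGF-beta binding protein genes LTBP1 to LTBP4, had a median half-life of 37.0 h, and 10 ligand genes one of 4.34 h. The 6 transducers and partners had a median of 1.39 h and 9 intracellular negative regulators one of 1.46 h, similar to the SMADs, and 10 known target genes one of 0.822 h, with a range of 0.0608 to 58.5 h. Only 2 of the 5 latency genes and 1 of the 10 targets were within 1 to 24 h in young and old females. The medians of the latency genes and of the targets lie outside that range and are less certain. The 9 other receptors and co-receptors had a median of 3.44 h and ran from 1.11 h (ACVR2A) to 13.3 h (ENG), so TGFBR2 was within their range and its long half-life was not shared by every receptor. Of these 9, 5 lay below the median of all genes. ACVR2A, BMPR1A (1.58 h), ACVR1B (1.59 h) and ACVR2B (1.92 h) had shorter half-lives than SMAD2 (2.21 h). SMAD9, the remaining BMP-branch SMAD, had a half-life of 1.46 h in young and 1.67 h in old females, near SMAD5.

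**Figure D5:**
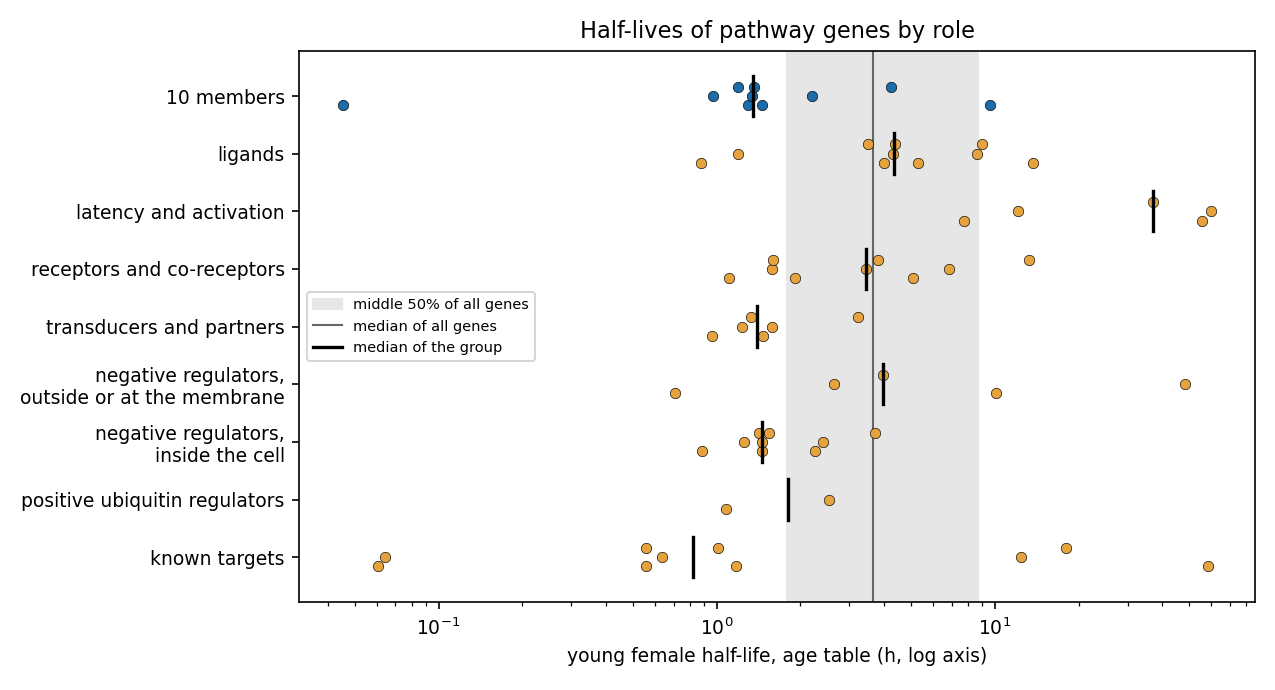
Young female half-life in the age table, in hours on a log axis, for the 10 members (blue) and the other pathway genes by role (orange), with the median of each role as a black bar and the median and middle 50% of all genes in grey. Most transducers and intracellular regulators lie left of the grey band, as most members do, and 4 of the 5 latency genes lie to its right.

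In old cells, synthesis rates of 5 of the 56 listed pathway genes were at least 2-fold higher (4.59% of all genes) and 9 lower (2.92%), and half-lives of 2 were longer (1.47%) and 2 shorter (2.06%). Among the 36 within 1 to 24 h in young and old females, 2 were higher in synthesis and 5 lower (4.73% of genes in this range in either direction), and 0 were past 2-fold in half-life (0.889%). Implied levels of 2 of 56 were at least 2-fold higher (2.13% of all genes) and 3 lower (1.99%), and in the range 1 of 36 was higher and 2 lower (3.43% in either direction). The 2 with higher synthesis rates in this range were FST, which encodes the activin-binding protein follistatin (synthesis rate 103 in young and 553 in old females, log2 ratio 2.43), and GDF10 (163 and 342, 1.07, or 0.99 relative to the median of all genes). The 5 with lower rates were the ligand genes INHBA (−1.13), GDF6 (−1.08) and BMP6 (−1.03), the type I receptor gene ACVRL1 (−1.06) and TNC, which encodes tenascin C (−1.04). BMP2 had the lowest ligand ratio (7308 and 2980, −1.29) with a half-life just under 1 h.

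In male cells, synthesis rates of 5 of 58 were at least 2-fold higher (3.78% of all genes) and 8 lower (8.37%), and half-lives of 3 were longer (5.62%) and 2 shorter (1.96%). Of the 42 with half-lives of 1 to 24 h, 2 were higher in synthesis and 6 lower (9.33% of genes in this range in either direction). LRRC32, whose product displays latent TGF-beta at the cell surface (log2 ratio 2.54, listed in the sex table only), and LTBP4 (1.02) were higher. INHBA (−1.61), BMP6 (−1.61), SMURF1 (−1.21), SMAD9 (−1.15), GDF6 (−1.07) and ZEB2 (−1.02) were lower. BMP2, with a young female half-life just under 1 h, was at −2.10. The same young female samples are the reference for old cells, so a gene named in both comparisons is not an independent repeat. SMURF1 encodes a ubiquitin ligase of BMP-branch SMADs. The half-lives of INHBA (3.98 and 11.5 h) and BMP7 (5.30 and 10.6 h) were the 2 past 2-fold in this range (3.87% of genes in this range), both longer in males. Log2 ratios of implied level were −0.08 for INHBA, −0.99 for BMP6 and 1.19 for BMP7. Implied levels of 6 of 58 were at least 2-fold higher (3% of all genes) and 1 lower (1.61%), and in the range 4 of 42 were higher and 0 lower (3.27% in either direction). Relative to the median ratios of all genes, INHBA and BMP6 stayed past 2-fold for synthesis (−1.34 and −1.33), and SMURF1 (−0.93), SMAD9 (−0.87), GDF6 (−0.79) and ZEB2 (−0.74) did not. On the same scale LRRC32 and LTBP4 stayed past it, and FST (0.79 as listed, 1.07 centred) and GDF10 (0.74 and 1.02) came to be past it as higher. For half-life INHBA stayed past it (1.26), BMP7 did not (0.73), and LRRC32 (4.17 and 2.22 h, −0.91 as listed and −1.18 centred) came to be past it as shorter.

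Several pathway genes had the same kind of values as SMAD1 and SMAD6. In young females SNAI2, a transcription factor gene, was at 0.0608 and 0.0613 h in the 2 tables, against 0.542 h in old females and 0.581 h in males. In old females the co-repressor gene TGIF1 was at 0.0720 h and the BMP target ID4 at 0.0346 h, against 0.887 and 1.17 h in young females. In males ACVR2A, an activin receptor gene, was at 0.0351 h against 1.22 h in young females. The log2 level ratios of these 4 genes in those comparisons were between −0.45 and 0.31.

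The gene nearest to each member over its 8 values, by Euclidean distance in log2 units, was CHD7 for SMAD4 (0.20), TRAPPC10 for SMAD2 (0.27), EGLN1 for TGFBR1 (0.28), HELZ for SKIL (0.28), KDM5A for SMAD5 (0.30), BNIP3 for TGFBR2 (0.35) and DCAF12 for SMAD3 (0.35). The inhibitory SMADs and SMAD1 had no gene as close: CCDC71 was nearest to SMAD7 (0.75), RNF168 to SMAD6 (0.79) and ZNF613 to SMAD1 (1.01). RNF168 had a male half-life under 0.1 h (0.0222 h), and ZNF613 a young female one (0.0340 h). These half-lives are among the values by which the genes were picked, so the likeness follows from the choice. The distance counts the young female samples from both tables. It also includes synthesis rates, whose scaling by gene length is not known.

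In the RefSeq annotation of the TB-T2T horse assembly, used here for gene order only, SMAD3 and SMAD6 were neighbours with 0 protein-coding genes between them, and SMAD2 and SMAD7 had 2 between them. A non-coding RNA gene overlapped TGFBR2 and another overlapped SMAD2, and whether the authors' counting used the strand is not given in the sources used here.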

How the data were processed

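Chondrocyte RNA was labelled with 4sU for 4 h, alkylated with iodoacetamide for 15 min and used for directional, poly(A)-selected libraries (per the labels' protocols). The submitters' processing notes name EquCab3.0, cutadapt 4.5 and STAR 2.5.3; the kinetic model, gene filter and pooling of replicates are not given in the sources used here. Per the file headers, each deposited table holds a synthesis rate and a half-life per gene and group. Half-lives were read as hours because they stop at 69.3, a decay rate of 0.01 per h, after 4 h of labelling. The column headed Young was read as young female from the labels.

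Log2 ratios, percentiles and implied levels were computed within a table with Python 3.11.15, pandas 2.3.3 and numpy 2.4.6, with no pseudocount and no filter, and the code was tested on simulated data. A gene counted as past the threshold at an absolute log2 ratio of at least 1. The members and lists were chosen with earlier results of these data known. Beside the members, the text names list genes past the threshold for half-life or synthesis and within 1 to 24 h in each of the groups compared, examples of a role, and the nearest gene to each member. BMP2, BAMBI, ID2, ID4, TGIF1, SNAI2 and ACVR2A were singled out after their values were seen. Alternatives tried were 0.5 as the threshold, half-lives of 1 to 24 h alone, centring on all genes or within half-life deciles, young female values taken from the second table, and the upper 75% of genes by synthesis rate. Protein and promoter sequences were not analysed here.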

Additional observations from a re-analysis of the deposited data

How the results depend on the processing

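No paired analysis was possible because each table holds 1 value per gene and group, and for the same reason no sample could be left out. No ratio of the 10 members that was past 2-fold changed sign when centred on all genes, centred within deciles or taken with young female values of the second table. When half-lives had to be within 1 to 24 h in each group, the members past 2-fold were 0 in every count, since SMAD1 and SMAD6 left it. For the other pathway genes that range left 0 longer and 0 shorter half-lives, 2 higher and 5 lower synthesis rates and 1 higher level in old cells, and 0 shorter half-lives, 2 higher synthesis rates and 0 lower levels in males, where 4 levels were higher. At a threshold of 0.5, members with a shorter half-life and a lower level were 1 and 2 in old cells (8.88% and 7.37% of all genes). In males 2 had a longer (27.4%) and 2 a shorter half-life (4.4%), 6 a lower synthesis rate (32.1%) and 3 a lower level (12%). Centred on all genes and within deciles, the SMAD7 half-life in old cells was at −0.43 and −0.37, and the TGFBR1 half-life in males at 0.26 and 0.20. Male synthesis rates of TGFBR1, SMAD2 and SKIL were above −0.5 on both scales, and that of SMAD4 within deciles. Within deciles the male levels of SMAD4, SMAD5 and SKIL were at −0.31, −0.29 and −0.30. Of the 56 other pathway genes in old cells, those at 0.5 were 7 for shorter half-life (8.88% of all genes), 12 and 15 for higher and lower synthesis (14.8% and 8.18%) and 6 and 16 for higher and lower level (8.19% and 7.37%). Of 58 in males they were 18 for longer half-life (27.4% of all genes), 9 and 17 for synthesis (8.96% and 32.1%) and 17 and 11 for level (13% and 12%). Centring on all genes, a scale with as many genes above 0 as below, moved the members with longer half-lives to 7 in old cells and 4 in males. Young female values taken from the second table moved 4 of 60 member ratios by 0.1 log2 units or more. All 4 were half-life or synthesis ratios of SMAD1. Centring on all genes moved 20 of the 60 and deciles moved 36. Keeping the upper 75% of genes by synthesis rate moved 0 of 40 half-life percentiles by 10 points. Depth is unknown, so the precision of a single half-life cannot be given.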
